A study of Homo sapiens with 22 samples.

Results

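The tubular injury markers are 9 genes that injured or dedifferentiated kidney tubule cells are known to switch on: HAVCR1, LCN2, VCAM1, ICAM1, SOX9, CLU, SPP1, PROM1 and CD24. They were chosen by name, with earlier results of these data known. Of the 9 genes, 8 are among the 36859 genes of the expression table, and SOX9 was not analysed here. The minimum for testing was 10 normalized counts in 2 or more libraries, which 14585 genes passed. It was passed by 7 of the members and not by VCAM1.

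The proximal tubule is the part of the nephron that takes back most of the filtered solutes, and it is the part most easily harmed by ischemia and toxins. Surviving tubule cells lose their differentiated state and express surface and secreted proteins that normal tubules hold at a low level, several of which are measured as biomarkers of kidney injury. HAVCR1 encodes KIM-1, a surface receptor for phosphatidylserine on dying cells, LCN2 encodes the secreted iron-siderophore carrier NGAL, and CLU encodes the secreted chaperone clusterin. VCAM1 and ICAM1 are adhesion molecules for leukocytes, and SPP1 encodes osteopontin, a secreted ligand of integrins and CD44. PROM1 (CD133) and CD24 are surface markers of scattered tubular cells with progenitor features.

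The cells are RPTEC, human renal proximal tubule epithelial cells immortalized with hTERT, and RNA-seq was done on 22 libraries in 11 groups of 2 replicates. WT cells, KO1 and KO2 (clones with SETD2 knocked out) and cells labelled KO2_Rescue were kept untreated in 2% serum, and further WT cells in the same serum received TGF-β at 10 ng/ml over 72 h. In regular media with 10% serum these are Rescue1 and Rescue2, which are single clones of KO cells transduced with full-length SETD2, and WT cells transduced by lentivirus with eGFP, SOX2, OCT2 or PRRX1 (WT_eGFP, WT_SOX2, WT_OCT2 and WT_PRRX1). All groups carry hTERT, each KO group is 1 clone, and serum cannot be told apart from rescue or transduction in any comparison across the 2 media. SETD2, the targeted gene, had 1852 and 2061 normalized counts in WT, 1046 and 1130 in KO1 (log2 change −0.84, adjusted p = 1.31e-07), 1050 and 1052 in KO2 (−0.89, adjusted p = 1.26e-07), and 9764 to 10445 in the 4 libraries of Rescue1 and Rescue2. The libraries labelled KO2_Rescue had 834 and 820, lower than in KO2 (log2 change −0.35, adjusted p = 0.00382), so SETD2 mRNA goes against that label.

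Normalized counts per library added up to between 11674491 and 16758645, from about 7600000 to 18700000 reads. Nothing in the labels says that replicates are separate cultures, so p-values measure only the spread between these libraries. The 2 WT libraries were the most different pair of replicates, with a median absolute log2 difference of 0.174 over genes with a mean of at least 1000 normalized counts, against 0.064 to 0.159 in the other groups. All 5 epithelial markers checked, among them PAX8, EPCAM and KRT8, reached 10 normalized counts in every group. Of the defining genes of the mature proximal tubule, HNF4A was at 0 in all libraries and LRP2 was at 0 in all but KO2, where it had 2.29 and 0.554. Among markers of other cells, AQP2 of the collecting duct and CD3E of T cells were at 0 in every library, and the summed counts of the 5 endothelial markers ranged from 3.31 to 172 and those of the 5 leukocyte markers from 11.2 to 380. Both sums were above those of WT in the KO clones, with 126 to 172 and 158 to 380, and the endothelial sum was also high in Rescue1 (102 to 153). Not all markers rose. Of the endothelial markers, KDR rose against WT (log2 change 6.42 in KO1 and 6.68 in KO2), and so did TIE1 in KO2 (3.13). CDH5 changed by −2.12 in both clones (adjusted p = 0.252 and 0.297), and VWF by −0.645 and 0.459. Of the leukocyte markers CD14 rose against WT in KO1 (2.71), and also with TGF-β (2.28) and in WT_eGFP (2.80). In KO2 the changes of CD14, CD68 and LYZ from WT were 0.415, 0.408 and 0.025. CD68 was lower than in KO2 in the rescue clones (−5.43) and in the libraries labelled KO2_Rescue (−3.98). The part of such changes in the results was not tested.

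The sequences of the promoters of LCN2 and SPP1 are shown because LCN2 was higher in both KO clones than in WT and SPP1 differed between the clones. Each is the 250 bases before a start site of RefSeq on GRCh38.p14, written along the gene's strand, and 7 of the 9 members have an entry in that table. GENCODE 44 has a more upstream start for LCN2, so that its window lies inside the gene span, and the SPP1 window overlaps its gene span in the last bases. Capitals mark matches on either strand to 3 motifs: the 10-base NF-κB consensus, the AP-1 motif TGANTCA and the SMAD motif CAGACA. The window of LCN2 is chr9:128149203-128149452 on the plus strand.
LCN2: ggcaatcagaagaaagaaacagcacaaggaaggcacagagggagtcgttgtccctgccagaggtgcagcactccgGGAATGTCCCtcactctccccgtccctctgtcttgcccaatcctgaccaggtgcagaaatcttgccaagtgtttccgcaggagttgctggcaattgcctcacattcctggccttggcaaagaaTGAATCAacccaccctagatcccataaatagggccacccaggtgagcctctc
Its capitals are a match to the NF-κB consensus from 175 to 166 bases before the start site and a match to AP-1 from 52 to 46 bases before it. Of the 7 members with an entry, CD24 and VCAM1 also have a window with a match to the NF-κB consensus, and ICAM1 has none. The window of SPP1 is chr4:87975464-87975713 on the plus strand.
SPP1: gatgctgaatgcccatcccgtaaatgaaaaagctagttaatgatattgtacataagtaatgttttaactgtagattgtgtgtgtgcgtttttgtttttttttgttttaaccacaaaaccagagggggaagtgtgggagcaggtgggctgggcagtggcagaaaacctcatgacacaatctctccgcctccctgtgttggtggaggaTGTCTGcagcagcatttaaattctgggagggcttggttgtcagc
Its capitals are a match to the SMAD motif. Among 35114 promoter windows of this length, 9.96% hold a match to the NF-κB consensus, 6.57% to AP-1 and 13.6% to the SMAD motif. No base shown in capitals is shared between motifs, and a match is a description of the sequence only.

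WT RPTEC expressed most of these genes at a high level without any treatment. Per kilobase of canonical transcript, the WT mean was highest for SPP1 (3658 normalized counts per kb), followed by CLU (1317), CD24 (1277), HAVCR1 (936) and PROM1 (351). The 2 WT libraries were far apart in CLU (6153 and 1085 normalized counts) and CD24 (1618 and 3887), so the order below SPP1 is uncertain. ICAM1 was at 17.8 per kb, LCN2 at 0.573 and VCAM1 at 0. With TGF-β the order was led by CLU (6725 per kb), ahead of SPP1 (1790) and PROM1 (695). In KO1 it was led by SPP1 (897) and CLU (712), and LCN2 (117 per kb) stood above HAVCR1 (28.4) and CD24 (9.66). In KO2 SPP1 (3085 per kb) and PROM1 (1672) were first, and LCN2 (144) again stood above CD24 (75.5) and HAVCR1 (33.0).

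**Figure D1:**
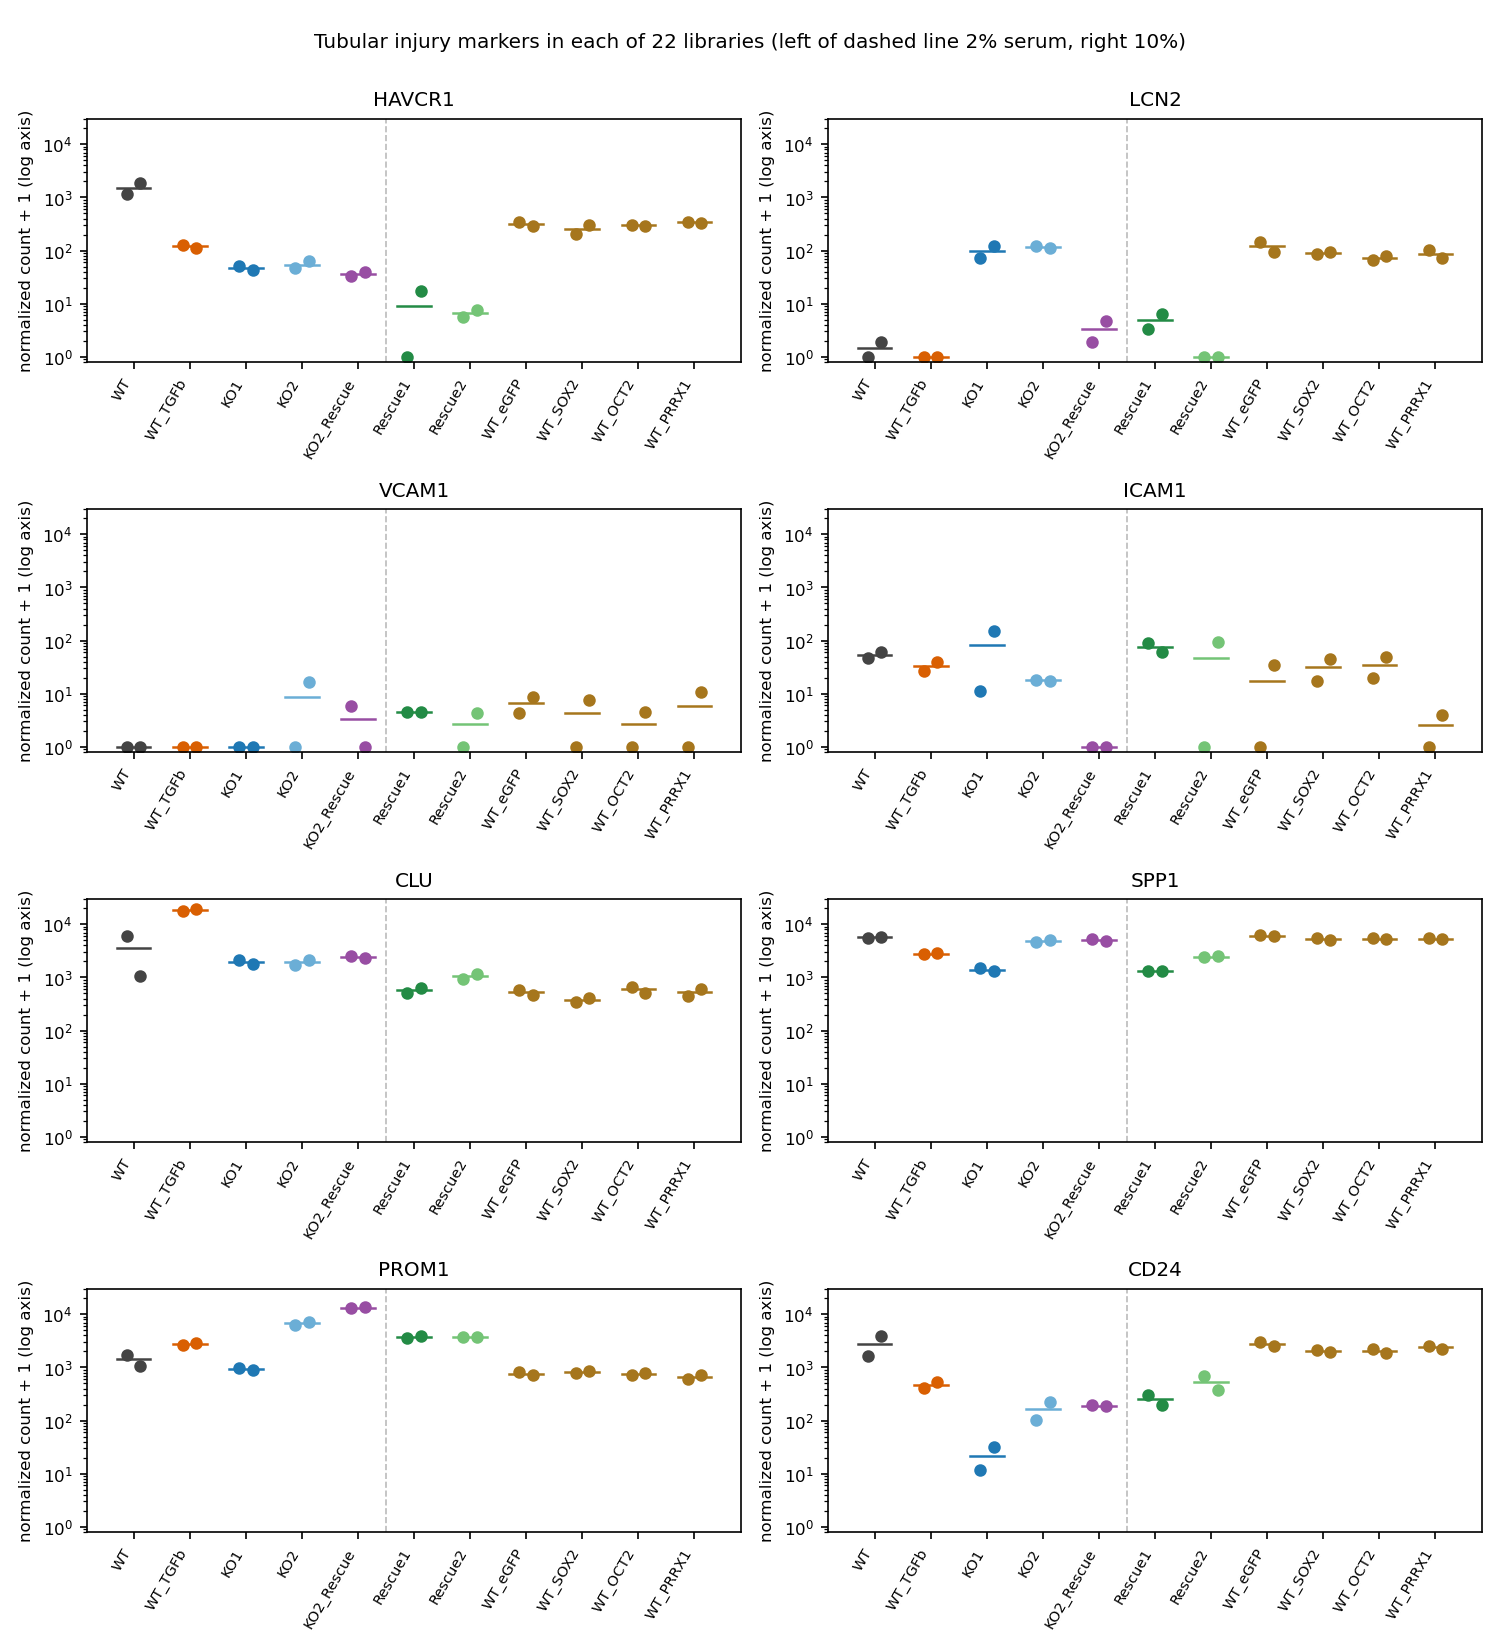
Normalized count plus 1 (log axis) of 8 injury markers in each of the 22 libraries, with 1 point per library and a line at the mean of each group of 2. HAVCR1 is highest in both WT libraries (1169 and 1869), LCN2 is near 0 in WT, with TGF-β and in the rescue clones and lies between 66.7 and 147 in the KO clones and transduced cells, and CLU is highest with TGF-β (17735 and 19240).

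A gene is called here when limma's moderated test on log2(normalized count + 1), fitted on all 22 libraries, gives a Benjamini-Hochberg adjusted p under 0.05 over the 14585 genes and an absolute log2 change over 1. LCN2 passed the count minimum only through the KO and the transduced libraries, so its own differences are given as values and counts of called members are given without it. With TGF-β 5 of the 6 other tested members were called, where 7.84% of all tested genes were. CLU and PROM1 rose, and HAVCR1, SPP1 and CD24 fell. None of these 5 calls, and none of all genes, was made in a fit of only the 4 WT and TGF-β libraries (1566 genes at an unadjusted p under 0.05), and without WT replicate 2 CLU and CD24 were still called. In KO1 3 of 6 were called against 25.0% of all genes, and in KO2 3 of 6 against 16.3%. HAVCR1 and CD24 fell in both clones, SPP1 fell in KO1 and PROM1 rose in KO2. In the direct comparison of KO (mean of both clones) with TGF-β, 2 of 6 were called against 20.2% of all genes, CLU and CD24 being lower in KO. The median log2 change of all 7, LCN2 included, was −0.70 for TGF-β, −0.56 for KO1 and −0.43 for KO2, where that of all tested genes was between 0 and 0.003. These medians are the values of ICAM1, PROM1 and CLU respectively, which were not called in those comparisons, so they show no common shift of the members. The comparisons with WT share the same 2 WT libraries. In bulk RNA, fewer cells that express a gene and less of its RNA per cell cannot be told apart.

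**Figure D2:**
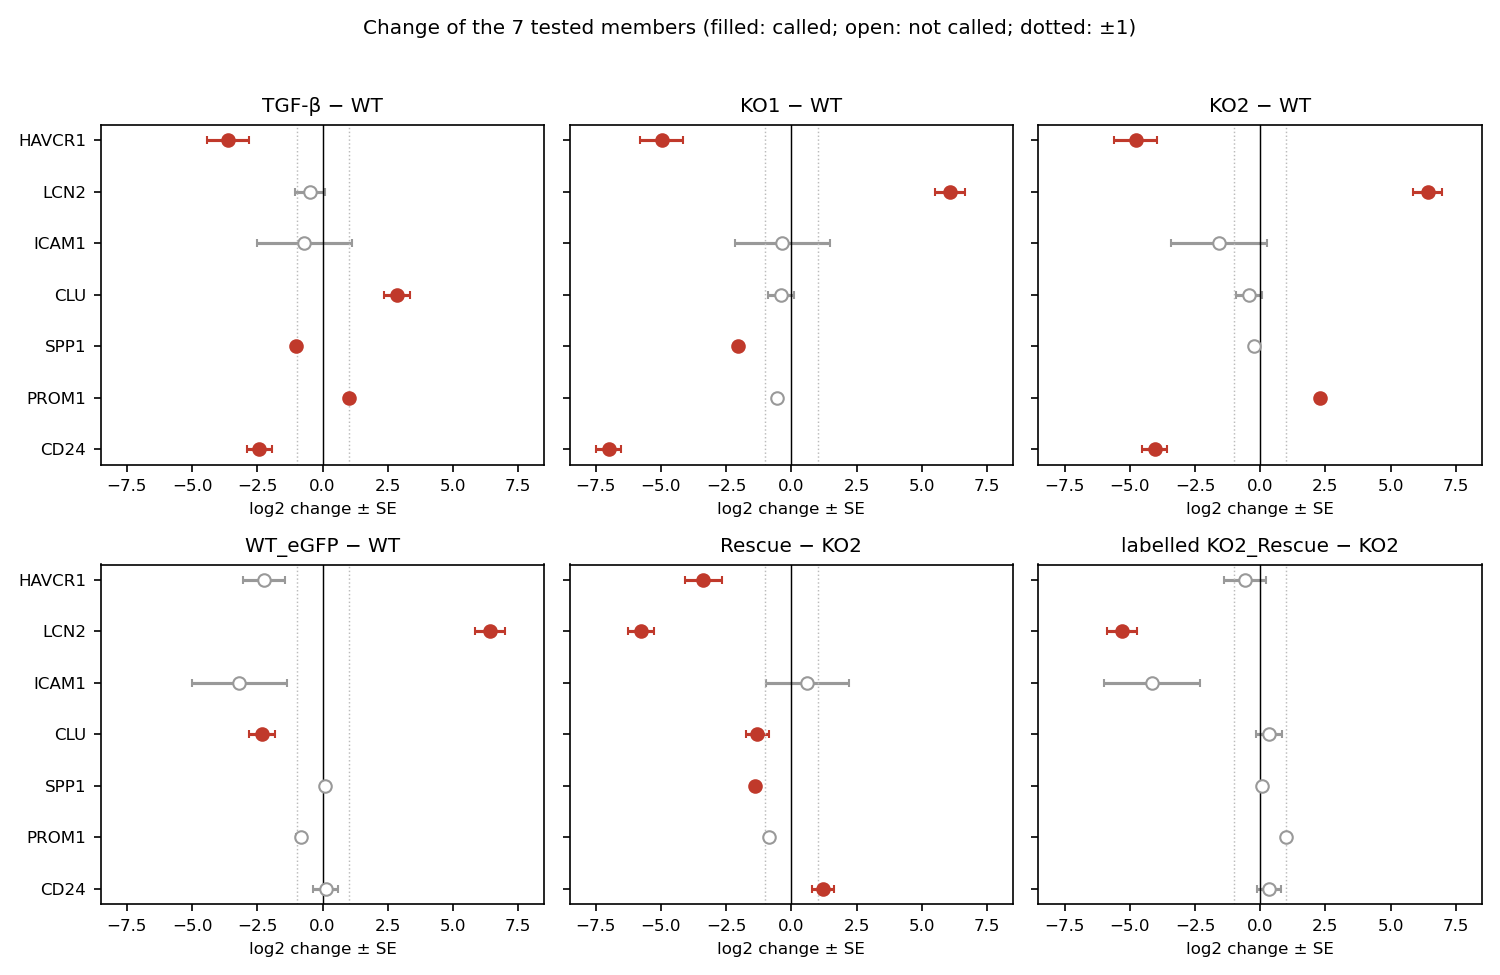
Log2 change with its standard error of the 7 tested members in 6 comparisons, filled where called and open where not, with dotted lines at 1 and −1. HAVCR1 lies far below 0 with TGF-β (−3.62) and in both KO clones (−4.98 and −4.78), LCN2 lies above 6 in KO1, KO2 and WT_eGFP against WT and below −5 in both rescue panels, and CLU is called higher only in the TGF-β panel (2.84).

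HAVCR1 (ENSG00000113249, GRCh38 chromosome 5 from 157026742 to 157069396, minus strand, 9 exons) was highest in untreated WT cells and lower in every other group. The WT libraries had 1169 and 1869 normalized counts and the TGF-β-treated libraries had 127 and 111. KO1 had 49.2 and 42.9 and KO2 had 45.7 and 61.3. All 6 libraries of these groups lay below both WT libraries. HAVCR1 fell with TGF-β by 3.62 on the log2 scale (SE 0.82, adjusted p = 0.00619). It fell by 4.98 in KO1 (adjusted p = 1.83e-04) and it fell by 4.78 in KO2 (adjusted p = 3.84e-04). KO and TGF-β did not differ past the threshold (log2 change −1.25, SE 0.71, adjusted p = 0.193), although all 4 KO libraries were below both TGF-β libraries. The TGF-β call was lost without WT replicate 2 (−3.28, adjusted p = 0.0592).

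HAVCR1 was lower still in the rescue clones. Rescue1 had 0 and 16.1 normalized counts and Rescue2 had 4.57 and 6.68, all below every KO library. The log2 change of the rescue clones from KO2 was −3.38 (SE 0.71, adjusted p = 0.00178), and from WT_eGFP, which was grown in the same media, it was −5.91 (adjusted p = 1.77e-05). The libraries labelled KO2_Rescue had 32.4 and 37.7, with no call against KO2 (−0.59, SE 0.82, adjusted p = 0.775). In the 8 libraries of transduced WT cells HAVCR1 lay between 201 and 351 with a median of 302, below both WT libraries and above both TGF-β libraries. WT_eGFP against WT was not called (log2 change −2.25, SE 0.82, adjusted p = 0.0571). In the order of group means WT stood apart, the 4 transduced lines overlapped each other, TGF-β came next, and KO2 and KO1 overlapped.

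Of the 7 tested genes of the proximal tubule identity list, which holds the endocytic receptor CUBN, the peptidases ANPEP and MME and the cadherin CDH6, 3 were called higher and 1 lower in each KO clone, where 25.0% and 16.3% of all genes were called. CUBN rose in KO1 (3.30, adjusted p = 0.0145) and KO2 (2.83, adjusted p = 0.0423), and so did ANPEP (2.77, adjusted p = 0.00828, and 2.36, adjusted p = 0.0269).

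LCN2 (ENSG00000148346, chromosome 9 from 128149071 to 128153453, plus strand, 7 exons) was almost undetected in WT and present in both KO clones. WT had 0 and 0.940 normalized counts and both TGF-β-treated libraries had 0, under the floor of 3 reads per library. KO1 had 70.6 and 121 and KO2 had 123 and 112. All 4 KO libraries lay above all 4 of WT and TGF-β. KO1 was at least 36.1-fold higher than WT and KO2 at least 44.3-fold higher. The KO clones together were at least 33.1-fold higher than the TGF-β-treated cells. These bounds are set against 3 reads per library and cover counting error only.

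The level of LCN2 in the KO clones was lost in all cells labelled as rescue. Rescue1 had 2.38 and 5.46 normalized counts, Rescue2 had 0 in both libraries, and the libraries labelled KO2_Rescue had 0.906 and 3.72. None of these 6 libraries reached 10, where every KO library was above 70. The fitted log2 change of the rescue clones from KO2 was −5.78 (SE 0.49), and with a pseudocount of 5 in place of 1 it was −4.21. Rescue2, at the floor, was at least 44.6-fold lower than KO2 and at least 45.8-fold lower than WT_eGFP. The fitted change in the libraries labelled KO2_Rescue, which share their serum with KO2, was −5.31 (SE 0.57), although their SETD2 mRNA was not higher than in KO2.

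LCN2 was also present in all WT cells that carried a lentiviral vector. WT_eGFP had 147 and 94.5 normalized counts, WT_SOX2 had 85.8 and 94.01, WT_OCT2 had 66.7 and 77.3, and WT_PRRX1 had 100 and 70.4. WT_eGFP was at least 45.5-fold higher than WT. The vector, the media and the serum all differ between these groups and cannot be told apart. The 3 factors did not differ from eGFP past the threshold, with log2 changes between −0.71 and −0.39 (SE 0.57 each).

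NF-κB response genes, a list of 15 targets and subunits of this inflammatory transcription factor of which 14 were tested, are given beside LCN2, which is known as one of its targets, and any part of NF-κB in the level of LCN2 was not tested. TGF-β gave 2 calls higher and 2 lower (median log2 change 0.30), where 7.84% of all tested genes were called in either direction. KO1 gave 11 higher and 0 lower (median 2.24) against 25.0% of all genes, and KO2 gave 10 higher and 0 lower (median 1.34) against 16.3%. The chemokine CCL20 changed by 8.499 in KO1 (adjusted p = 5.52e-13) and by 8.11 in KO2, and CXCL8 changed by 5.59 and 4.87. In WT_eGFP against WT 8 were called higher and 1 lower (median 1.76) against 12.7% of all genes, with CXCL8 at 6.99 and CXCL2 at 5.71. Against KO2 9 were called lower in the rescue clones and 8 in the libraries labelled KO2_Rescue, with 0 higher in either (medians −1.35 and −1.46), where 17.5% and 4.17% of all genes were called.

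**Figure D3:**
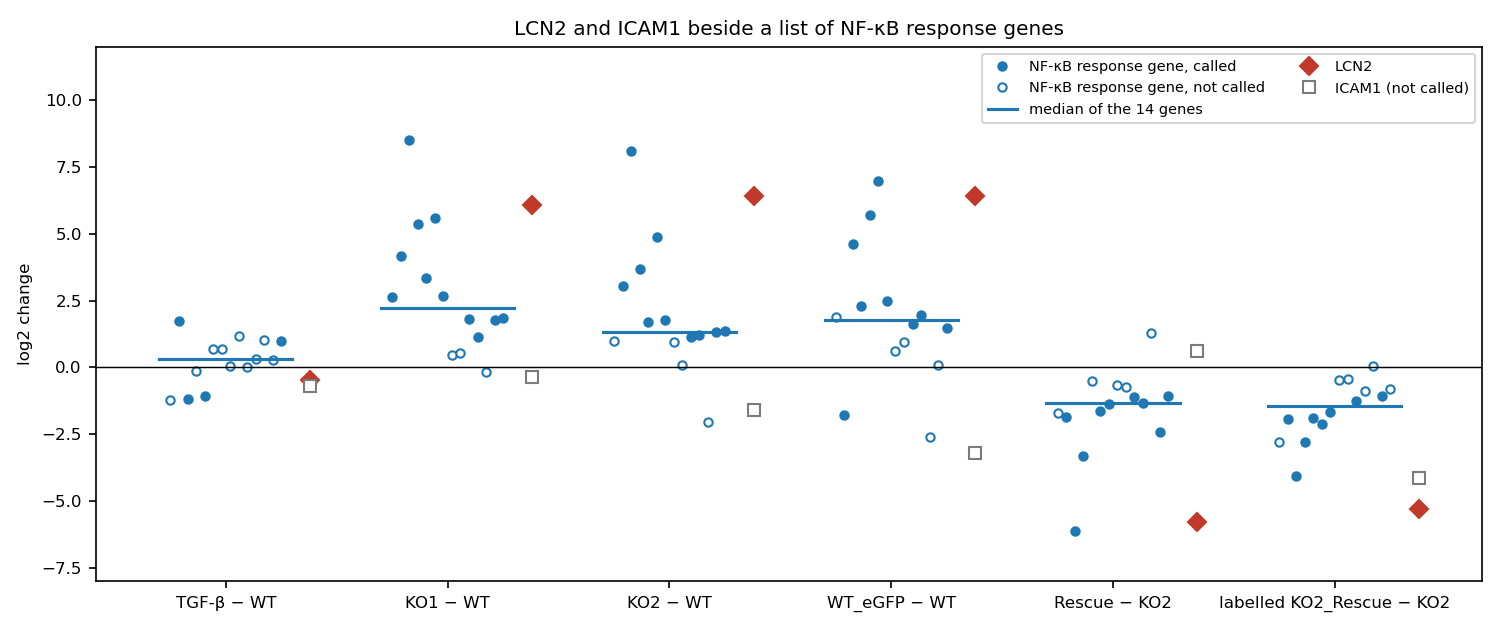
Log2 changes of LCN2 (diamonds) and ICAM1 (squares) beside 14 NF-κB response genes (circles, filled where called) in 6 comparisons, which share libraries, with a line at the median of the 14. LCN2 lies above the median in KO1, KO2 and WT_eGFP against WT and below it with TGF-β (−0.48 against 0.30) and in both rescue comparisons, and ICAM1 is not called in any of the 6.

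ICAM1 (ENSG00000090339, chromosome 19 from 10271093 to 10286615, plus strand), which leukocyte integrins bind and which NF-κB is also known to drive, was too variable between replicates to compare. WT had 45.6 and 60.1 normalized counts, TGF-β-treated cells 26.2 and 38.6, KO1 10.5 and 152, and KO2 17.3 and 16.3. Rescue1 had 90.0 and 60.4, Rescue2 had 0 and 93.99, WT_eGFP had 0 and 33.2, and both libraries labelled KO2_Rescue had 0. KO1 alone held the highest value of all and a value below both libraries of WT, TGF-β and KO2. Its SE was 1.83 for a difference of 2 groups, and it was called in none of the 12 comparisons. VCAM1 (ENSG00000162692, chromosome 1 from 100719742 to 100739045, plus strand), known as a marker of tubule cells that fail to repair, was at 0 in 12 of 22 libraries, WT, TGF-β and KO1 among them. It had 15.5 normalized counts in KO2 replicate 2, where the floor of 3 reads is 3.55, and at most 9.88 in any other library. It was thus found at a low level in some libraries, but no difference between groups could be shown at this depth.

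CLU (ENSG00000120885, chromosome 8 from 27596917 to 27614700, minus strand, 9 exons) was the member that TGF-β raised most. The WT libraries had 6153 and 1085 normalized counts and were far apart. The TGF-β-treated libraries had 17735 and 19240, above both. CLU rose by a log2 change of 2.84 (SE 0.50, adjusted p = 9.78e-04). Leaving out WT replicate 2 gave 1.59 and leaving out WT replicate 1 gave 4.09, called in both. KO1 had 2116 and 1801 and KO2 had 1752 and 2086, between the 2 WT values, and the log2 changes of −0.40 and −0.43 from WT were not called (adjusted p = 0.564 and 0.581). These KO changes were −1.66 and −1.69 and were called without WT replicate 2, and were 0.85 and 0.82 without WT replicate 1. The direct comparison does not use WT, and there CLU was 9.56-fold lower in KO than with TGF-β (log2 change −3.26, SE 0.43, adjusted p = 2.67e-05).

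The 6 groups with the lowest mean of CLU were those grown in 10% serum. Rescue1 had 515 and 633 normalized counts and Rescue2 had 954 and 1144, below all 4 KO libraries. The log2 change of the rescue clones from KO2 was −1.31 (SE 0.43, adjusted p = 0.0296), and it was lost without KO2 replicate 1, KO2 replicate 2, Rescue1 replicate 1 or Rescue2 replicate 1 (adjusted p = 0.0679 to 0.163). The 8 transduced WT libraries lay between 340 and 667, and WT_eGFP against WT was called at −2.31 (SE 0.50, adjusted p = 0.00297), ranging from −1.06 without WT replicate 1 to −3.56 without WT replicate 2. Against WT_eGFP, in the same media, the rescue clones were not called (0.57, SE 0.43, adjusted p = 0.371). The libraries labelled KO2_Rescue, in 2% serum, had 2572 and 2305 and were not called against KO2 (0.35, adjusted p = 0.781).

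**Figure D4:**
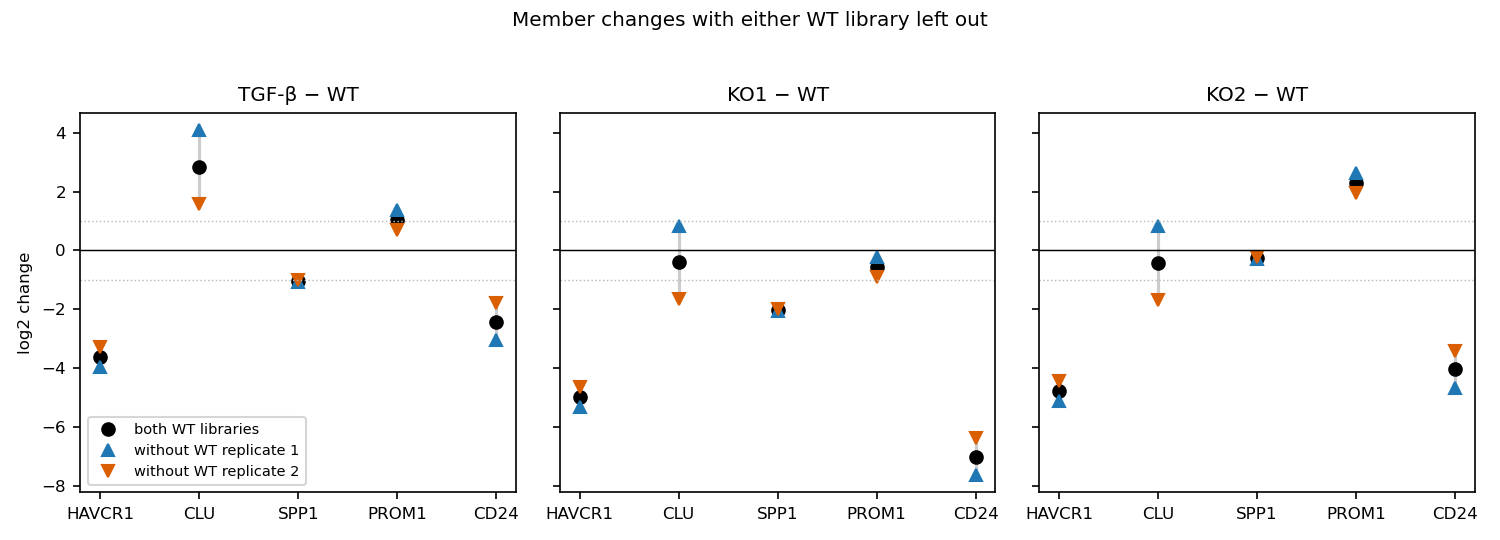
Log2 change of 5 members with TGF-β and in each KO clone, with both WT libraries (circles), without WT replicate 1 (upward triangles) and without WT replicate 2 (downward triangles), and dotted lines at 1 and −1. The changes of CLU in the KO clones cross 0 (0.85 and −1.66 in KO1), whereas those of HAVCR1 and CD24 stay below −1 in all 3 panels.

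SPP1 (ENSG00000118785, chromosome 4 from 87975667 to 87983532, plus strand, 7 exons) had small differences between replicates and fell in TGF-β-treated cells and in KO1. WT had 5557 and 5862 normalized counts, TGF-β-treated cells 2730 and 2857, KO1 1494 and 1307, and KO2 4660 and 4971. The log2 change was −1.03 with TGF-β (SE 0.07, adjusted p = 1.77e-07) and −2.03 in KO1 (adjusted p = 1.04e-11). In KO2 it was −0.25 (adjusted p = 0.0156), under the fold required. The TGF-β change lies at that fold and fell under it without WT replicate 2 (−0.99) or without TGF-β replicate 1 (−0.998).

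Rescue1 had 1336 and 1321 normalized counts of SPP1 and Rescue2 had 2396 and 2518, close to KO1 and to TGF-β-treated cells respectively. Against WT_eGFP, which had 6204 and 5909, the rescue clones were lower (log2 change −1.74, SE 0.06, adjusted p = 4.86e-11). Against KO2 they were lower as well (−1.41, adjusted p = 2.62e-10), but against KO1 the change was 0.37 (adjusted p = 1.58e-04) in the other direction and under the fold required. The labels do not say from which KO clone each rescue clone came, and other material of the study names the KO clones the other way round, so this was not settled here. The libraries labelled KO2_Rescue had 5281 and 4932, with no call against KO2 (0.08, adjusted p = 0.568). The 8 transduced WT libraries lay between 5179 and 6204.

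PROM1 (ENSG00000007062, chromosome 4 from 15963076 to 16084378, minus strand, 28 exons) moved in opposite directions from the other progenitor marker CD24 in KO2 and with TGF-β. WT had 1741 and 1085 normalized counts, TGF-β-treated cells 2671 and 2920, KO1 976 and 896, and KO2 6219 and 7230. PROM1 rose 4.87-fold in KO2 (log2 change 2.29, SE 0.16, adjusted p = 5.36e-08) and was not called in KO1 (−0.56, adjusted p = 0.0127). With TGF-β it rose by a log2 change of 1.02 (adjusted p = 4.04e-04), which was under the fold required without WT replicate 2 (0.68), without TGF-β replicate 2 (0.96), after scaling all libraries to 1 total (0.79) and after quantile normalization (0.98).

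The highest level of PROM1 was in the libraries labelled KO2_Rescue, with 13287 and 13499 normalized counts. Both were above both KO2 libraries, and the log2 change of 0.998 (SE 0.16, adjusted p = 7.63e-04) lay just under the fold required. Rescue1 had 3554 and 3876 and Rescue2 had 3765 and 3779, above every WT_eGFP library at 804 and 727. The log2 change from WT_eGFP was 2.29 (SE 0.14, adjusted p = 1.67e-08). From KO2 it was −0.84 (adjusted p = 2.53e-04), under the fold required, and from KO1 it was 1.999 (adjusted p = 2.35e-08) and called.

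CD24 (ENSG00000272398, chromosome 6 from 106969831 to 106975627, minus strand, 2 exons), a small glycoprotein of the cell surface, fell with TGF-β and in both KO clones. Processed copies of CD24 elsewhere in the genome are nearly identical to it, and reads could be divided among them, so its level is uncertain. WT had 1618 and 3887 normalized counts, TGF-β-treated cells 418 and 522, KO1 10.96 and 30.7, and KO2 101 and 224. The groups do not overlap, and KO1 was the lowest. The log2 change of CD24 was −2.42 for TGF-β (SE 0.48, adjusted p = 0.00239), −7.01 for KO1 (adjusted p = 2.02e-08) and −4.05 for KO2 (adjusted p = 1.21e-05). These changes were called with either WT library left out, at −1.79 to −3.06 for TGF-β, −6.38 to −7.64 for KO1 and −3.41 to −4.68 for KO2.

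Rescue1 had 302 and 195 normalized counts of CD24 and Rescue2 had 687 and 368, far below WT_eGFP at 2991 and 2490 (log2 change −2.96, SE 0.41, adjusted p = 7.32e-05). Against KO2 the change of 1.21 (adjusted p = 0.0352) was called, but Rescue1 replicate 2 at 195 was below KO2 replicate 2 at 224. The call was lost for Rescue1 alone (0.68, adjusted p = 0.321) and kept for Rescue2 alone (1.73, adjusted p = 0.0132). Without KO2 replicate 1 it was lost too (0.64, adjusted p = 0.408), as it was without Rescue1 replicate 1 (1.05, adjusted p = 0.0947) or Rescue2 replicate 1 (0.98, adjusted p = 0.108). The libraries labelled KO2_Rescue had 198 and 184 and overlapped KO2. The 8 transduced WT libraries lay between 1877 and 2991, inside the range of the 2 WT libraries.

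The 2 KO clones differed in 3 of the 6 tested members other than LCN2, where 6.97% of all tested genes were called between them. All 3 were lower in KO1. PROM1 was 7.17-fold lower in KO1 than in KO2 (log2 change −2.84, SE 0.16, adjusted p = 3.25e-08), SPP1 was 3.44-fold lower (−1.78, SE 0.07, adjusted p = 8.04e-10) and CD24 was 7.80-fold lower (−2.96, SE 0.48, adjusted p = 6.37e-04). The libraries of both clones do not overlap in any of the 3. HAVCR1, LCN2 and CLU overlapped between the clones, with log2 changes of −0.20 (SE 0.82), −0.35 (SE 0.57) and 0.03 (SE 0.50). Of the 5 epithelial markers, EPCAM (−1.77, adjusted p = 1.26e-07) and KRT8 (−1.26, adjusted p = 2.03e-08) were lower in KO1 than in KO2, and PAX8 (0.35), KRT18 (0.78) and PAX2 (−0.04) were not called. Their part in the differences of the members was not tested.

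In the rescue comparisons 4 of the 6 tested members other than LCN2 were called against KO2, where 17.5% of all tested genes were, and 4 of 6 against WT_eGFP, where 13.1% were. Against KO2 HAVCR1, SPP1 and CLU were lower and CD24 was higher. Against WT_eGFP HAVCR1, SPP1 and CD24 were lower and PROM1 was higher. Of these members, those called in KO2 against WT were CD24, which changed in the opposite direction in the rescue clones, HAVCR1, which changed in the same direction, and PROM1, which was not called. Against KO1 in place of KO2, HAVCR1 (−3.18) and CLU (−1.34) were lower and CD24 (4.17) was higher as well, all called. In the libraries labelled KO2_Rescue limma called 0 of 6 against KO2, where 4.17% of all tested genes were called, and 2 of 6 had an unadjusted p under 0.05 (PROM1 and ICAM1).

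In WT_eGFP against WT 1 of the 6 tested members other than LCN2 was called, CLU being lower, where 12.7% of all tested genes were called. SOX2, OCT2 and PRRX1, transcription factors expressed from the same kind of vector, were each compared with eGFP. Limma called 0 of 7 members in each, where 0.0206%, 0.0343% and 0.0411% of all tested genes were called. At an unadjusted p under 0.05, 1 member passed in each, which was SPP1 with log2 changes of −0.19, −0.18 and −0.18 (SE 0.07). The WT_eGFP libraries are shared by these 3 comparisons, so the like values of SPP1 are not independent.

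The partners of the members, a list of 18 genes of which 11 were tested, hold the receptors and ligands through which these proteins are known to act. MMP9, the metalloproteinase that NGAL binds, had 1126 and 722 normalized counts in WT, 2364 and 2642 after TGF-β, 7.45 and 4.93 in KO2, and 0 in both libraries of KO1. Its level is thus below 10 in all KO libraries, and WT_eGFP had 1.54 and 0. No library reached 10 normalized counts of both LCN2 and MMP9. The rescue clones had between 1.72 and 23.5 of MMP9. SLC22A17, the NGAL receptor, rose with TGF-β (2.28, adjusted p = 0.0271) and in KO1 (2.21, adjusted p = 0.0152), and fell in the rescue clones against KO2 (−4.66, adjusted p = 1.59e-05).

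CD44, the osteopontin receptor, had 11504 and 12409 normalized counts in WT, 66862 and 71305 in KO1, and 38565 and 32523 in KO2. CD44 rose by 2.53 on the log2 scale in KO1 (SE 0.08, adjusted p = 2.36e-12) and by 1.57 in KO2 (adjusted p = 9.52e-10), and with TGF-β the change of 0.29 (adjusted p = 0.0151) was under the fold required. CD44 fell against KO2 in the rescue clones (−1.50, adjusted p = 3.44e-10) and in the libraries labelled KO2_Rescue (−1.67, adjusted p = 2.17e-09). The integrin subunits ITGB3 and ITGB1, which also bind osteopontin, rose with TGF-β (1.37, adjusted p = 4.06e-08, and 1.30, adjusted p = 2.51e-05) and were lower in KO than with TGF-β (−1.72 and −1.48). The clusterin receptor LRP8 was not called in any comparison, but its replicates disagreed (4.33 and 131 in KO1, 49.3 and 0.964 in KO2), so a difference could not be shown. VLDLR, also on the list, fell in the rescue clones against KO2 (−1.525, adjusted p = 3.46e-07). LRP2, the CD24 ligand SIGLEC10 and TIMD4, a relative of KIM-1, did not pass the minimum. In all, 3 of 11 tested partners were called higher and 1 lower with TGF-β. KO1 gave 2 higher and 1 lower, and KO2 gave 1 of each. All tested genes were called at 7.84%, 25.0% and 16.3% in these comparisons, near the shares of the partners in KO1 and KO2.

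Other injury genes, a list of 30 of which 25 were tested, moved in both directions in each condition. With TGF-β 4 were called higher and 3 lower (median log2 change −0.19), in KO1 8 and 9 (−0.41), in KO2 6 and 4 (−0.02), and in the rescue clones against KO2 3 and 7 (−0.21). Of all tested genes 7.84%, 25.0%, 16.3% and 17.5% were called in the same comparisons. The complement component C3 fell with TGF-β (−2.48, adjusted p = 1.45e-08) and rose in KO1 (5.24, adjusted p = 3.57e-13) and KO2 (3.84, adjusted p = 1.74e-11). The stress cytokine GDF15 rose in KO1 (6.67, adjusted p = 2.19e-14) and KO2 (4.42, adjusted p = 3.36e-12). C3 and GDF15 also rose in WT_eGFP (4.56 and 3.41) and were lower in the libraries labelled KO2_Rescue than in KO2 (−2.20 and −2.16). The keratin KRT7 rose with TGF-β (2.71, adjusted p = 0.0157), and both treated libraries lay above both WT libraries. The WT libraries were far apart in KRT7, as they were in CLU, so the size of this rise is uncertain.

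The genes whose group means were most like those of each tested member over the 11 groups, by Pearson's r on the log2 scale and leaving out the Y chromosome, are given as a description. They were ABI3BP (r = 0.973) and PCSK5 (0.959) for HAVCR1, MUC5AC (0.986) and CREBRF (0.974) for LCN2, MICALL2 (0.978) and RHPN1 (0.973) for CLU, and KIF12 (0.981) and CHST9 (0.961) for SPP1. For PROM1 they were NDRG4 (0.952) and SNCAIP (0.948), for CD24 FRMD4B (0.991) and RPS27A (0.985), and for ICAM1, whose replicates disagree, MISFA (0.897) and ASAP3 (0.842). Among the members themselves r was highest for HAVCR1 with SPP1 (0.74) and SPP1 with CD24 (0.71), and lowest for HAVCR1 with PROM1 (−0.61). The 11 points share media, parental cells and, among the clones, their origin.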

How the data were processed

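RNA-seq libraries of RPTEC were made with a stranded mRNA kit. The authors quantified transcripts with salmon (1.9.0 in the submitters' processing notes) against GRCh38 cDNA sequences (Ensembl release 94), ran deseq2 1.26.0 and deposited log2 values for 36859 genes. The transformation is not given in the sources used here. The lowest deposited log2 value is 11.32 in all 22 libraries, and inverting a variance-stabilizing transformation of that form gave the normalized counts used here, so counts and reads are approximate. The design had assumed normalized counts, and its test was kept.

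Limma 3.58.1 (R 4.3.3, trended variance) was fitted on log2(normalized count + 1) in all 22 libraries with a mean per group, for 14585 genes. Fold changes of low genes are understated on this scale. Replicate numbers are not said to pair samples. Correlations of deviations were −0.082 to 0.047 over 55 pairs of groups, which shows no sign of pairing but cannot exclude a weak one. The fit was tested on simulated data. Gene positions and lengths are from GENCODE 44. Some results for listed genes are not reported here.

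The members and lists were chosen with earlier results of these data known. Named genes are the members, SETD2, the 2 genes most alike for each member and, per list and comparison, at most 3 called genes of largest change whose libraries do not overlap. Other values of list genes, such as ITGB1 with TGF-β, and markers at 0 were named after seeing them. Alternatives were pseudocounts of 0.5 and 5, other filters and scalings, the deposited log2 values, fewer libraries and a replicate block. After seeing the data, a comparison with KO1 and a fit without the libraries labelled KO2_Rescue were added. Python 3.11.15, numpy 2.4.6, pandas 2.3.3 and matplotlib 3.10.9 were used.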

Additional observations from a re-analysis of the deposited data

Results flagged for a closer look

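In the direct comparison of the 2 SETD2 KO clones, 3 members differed in their response, with a log2 change of KO1 minus KO2 of −1.78 for SPP1, −2.84 for PROM1 and −2.96 for CD24 (limma, adjusted p = 8.04e-10, 3.25e-08 and 6.37e-04). PROM1 is the member whose changes from WT had opposite signs in the clones, −0.56 in KO1 and 2.29 in KO2. Each clone is 1 line, so clone and genotype cannot be told apart. Groups of 2 libraries allow no test for a single library that stands apart.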

How the results depend on the processing

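Of the 32 called changes of members, 446 of 503 values under other settings were still called in the same direction, 56 kept the direction without the call, and 1 was reversed, SPP1 in the rescue clones against KO1 in place of KO2 (0.37), a choice made after seeing the data. The 32 changes include those of LCN2, which passed the count minimum only through the groups where it is high. For LCN2 the values that stayed called are therefore no support, and the tally is a description only. The scale of the deposited log2 values compresses changes, and not only those of low genes. On it the calls of SPP1 and CLU in the rescue clones against KO2 were lost too. Counts of called members, LCN2 included, fell on these values from 5 to 1 for TGF-β, from 4 to 1 for KO1, from 4 to 2 for KO2, from 3 to 1 for KO1 against KO2 and for KO against TGF-β, from 5 to 0 for the rescue clones against KO2 and against WT_eGFP, from 1 to 0 for the libraries labelled KO2_Rescue and from 2 to 0 for WT_eGFP. In a fit of only the groups compared, which has few libraries, it was 0 with TGF-β, 0 for KO1 against KO2, 3 for the rescue clones against KO2 and 2 for the libraries labelled KO2_Rescue. The last count was also 2 with the same total and with quantile normalization, through PROM1. Rescue2 alone gave 3 against KO2. Leaving out 1 library gave 2 to 5 with TGF-β (2 without WT replicate 2), 4 to 5 in each KO clone, 3 to 3 between the clones, 3 to 3 for KO against TGF-β, 3 to 5 for the rescue clones against KO2 (3 without KO2 replicate 1, Rescue1 replicate 1 or Rescue2 replicate 1) and 5 to 6 against WT_eGFP, 1 to 2 for the libraries labelled KO2_Rescue (2 without KO2 replicate 2 or KO2_Rescue replicate 1), 2 to 3 for WT_eGFP against WT and 0 to 0 for the 3 factors. With a replicate block the counts were the same as without it (5 with TGF-β and 4 in either KO clone), and no call changed, but the numbers are not said to pair samples. Scaling every library to the same total moved the median log2 change of all genes to −0.20 for TGF-β, −0.39 for KO1, −0.20 for KO2, −0.21 for KO1 against KO2 and 0.26 for the rescue clones against KO2, and no called member changed direction. Over all genes, the calls with TGF-β went from 1143 to 31 on the deposited log2 values, to 0 with only the groups compared (1566 at an unadjusted p under 0.05) and to 739 without WT replicate 2. Those in KO1 went from 3653 to 178 and 1912, those in KO2 from 2378 to 94, and those of WT_eGFP from 1856 to 36 and 715 under the first 2 of these settings. KO1 against KO2 went from 1016 to 23 and 1, to 1745 without KO1 replicate 1 and to 642 without KO2 replicate 2. On the deposited log2 values KO against TGF-β went from 2939 to 134 (1942 with a mean of at least 50), the rescue clones from 2551 to 62 against KO2 (3904 against KO1) and from 1915 to 35 against WT_eGFP, and the libraries labelled KO2_Rescue from 608 to 35. SOX2, OCT2 and PRRX1 had 3, 5 and 6 calls, which other settings moved to between 0 and 41, the highest without WT_eGFP replicate 2. At about 7600000 to 18700000 reads, VCAM1, ICAM1 and the low levels of LCN2 are limited by counting.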
